A study of Mus musculus with 8 samples.

Results

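Notch signalling passes between touching cells: a membrane-bound ligand on one cell binds a Notch receptor on its neighbour, the receptor is cut, and its intracellular part enters the nucleus and acts with the DNA-binding protein RBPJ on target genes. In skin the pathway is known for its part in the change of basal keratinocytes to suprabasal ones, in hair follicle differentiation and in blood vessels. The genes described here are the 4 mammalian Notch receptors (Notch1, Notch2, Notch3 and Notch4) and 4 ligands, the Jagged genes Jag1 and Jag2 and the Delta-like genes Dll1 and Dll4. They were chosen by symbol, not by their values, as 8 of the 20284 genes that could be named on the arrays. All 8 were measured, by 10 probes, and all 8 passed the filter on dim probes.

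RNA of whole skin was hybridised to 8 one-colour microarrays, 4 of skin labelled DTG and 4 of skin labelled Control. The series is titled for overexpression of the Musashi1 gene, whose RNA-binding product is known to repress translation of the Notch inhibitor Numb, and the question here is how the receptor and ligand genes differ between DTG and Control skin. The labels do not spell out DTG, and they give no strain, age, promoter or transgene design. Each sample title carries a different number, but nothing in the labels says that the 4 samples of a group came from 4 animals. A p-value here thus weighs a difference against the scatter of these arrays, some of which may be technical.

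Levels are log2 signals less the 75th percentile of probe signals on that array, and a log2 fold change is DTG minus Control. Msi1, the gene of Musashi1, read 3.85 to 4.16 on 3 DTG arrays, with the spot on DTG 1 left out for an outlier flag, and -5.92 to -1.48 on the 4 Control arrays by its brighter probe, a log2 fold change of 6.81 (SE 1.02, limma adjusted p = 0.0029). Its other probe gave a log2 fold change of -0.03 (SE 0.14, adjusted p = 0.90). All samples are labelled male, but Xist, the RNA of the inactive X chromosome, was high on 3 DTG and 2 Control arrays, where the Y-linked gene Eif2s3y was low. These 5 arrays go against their label. Arrays of high and of low Xist are in each group, so the samples of a group came from more than 1 animal. DTG arrays had 68.8% to 71.6% of spots well above background and a mean log2 signal of negative-control spots of 4.27 to 4.69, against 79.5% to 85.1% and 2.40 to 3.29 on Control arrays. DTG and Control arrays lay in different rows of 1 slide, so row and group cannot be told apart. Relative to the 75th percentile the spike-in spots read -1.45 to -1.33 on DTG arrays and -1.23 to -0.68 on Control arrays, so a scale set on the spike-ins moves the median log2 fold change of all genes to 0.32, against -0.15 here. Values on that scale are given beside the results. Each slide column held 1 DTG and 1 Control array, so differences within a column are also given for the called genes.

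Of the 8 genes, the ligand gene Jag2 and the receptor gene Notch3 were lower in DTG skin, and the other 6 did not pass the test (limma, adjusted p under 0.05). Across all 17766 genes tested 32.4% were called, 21.3% lower and 11.1% higher, so a count of 2 in 8 is near the background and says nothing particular about the family. By probe, 2 of the 10 were called, against 31.3% of all 23223. The median log2 fold change of the 8 was -0.10, against -0.15 for all genes. The log2 fold change of Jag2 was 346th from the lowest of the 17766 genes, while Notch3 was 2606th. With the scale set on the spike-ins, 4 of the 8 genes were called, Jag2 lower and Notch1, Notch4 and Jag1 higher, and the median of the 8 was 0.37. On that scale 36.4% of all genes were called, 5983 of the 6469 higher, so this count too is read only against that share.

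**Figure D1:**
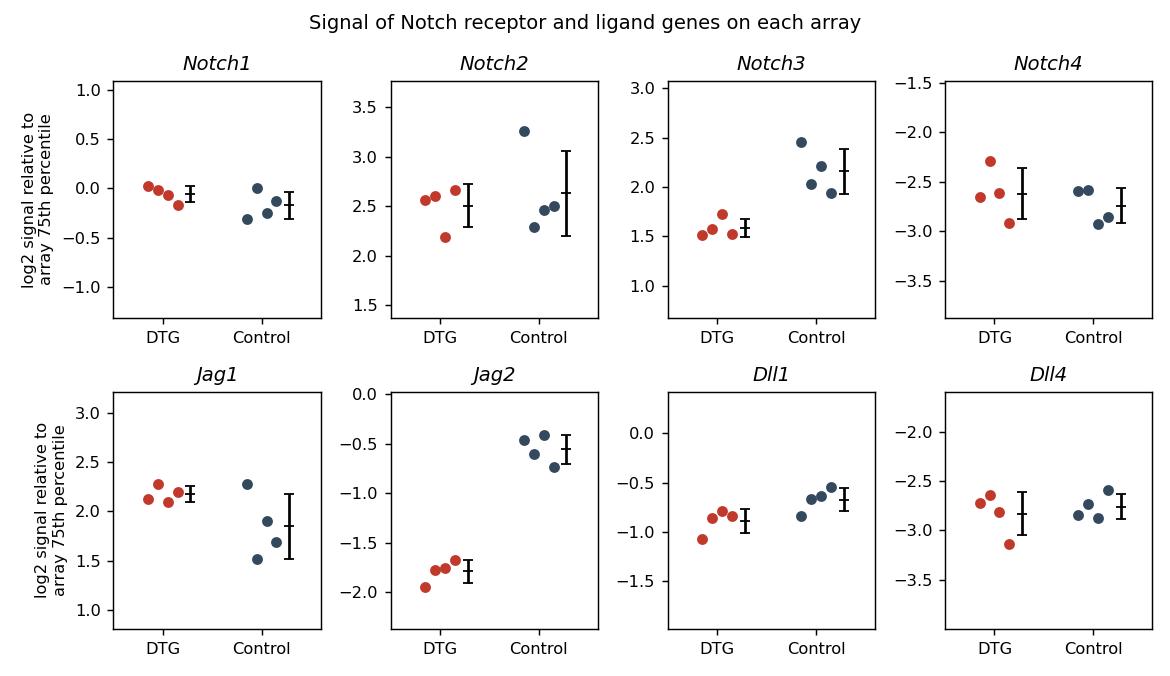
Log2 signal less the 75th percentile of its array (vertical axes, of equal span) of the 4 receptor genes (top) and 4 ligand genes (bottom) on each DTG and Control array (points), with mean and SD beside them. DTG and Control points are apart for Jag2 and Notch3 and overlap for the other 6 genes.

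Jag2, a Serrate-type ligand that activates Notch receptors, had levels of -1.95, -1.78, -1.76 and -1.68 on the 4 DTG arrays, against -0.47, -0.60, -0.42 and -0.74 on the 4 Control arrays. Every DTG array was below every Control array, and the gap between the groups was wider than the range within either. The mean was -1.79 ± 0.11 in DTG skin and -0.56 ± 0.14 in Control skin (SD, n = 4 each), a log2 fold change of -1.24 (SE 0.11, 95% interval -1.48 to -0.997, limma adjusted p = 0.000195). The difference was also plain before any scaling between arrays. The scanner's processed signal was 1010, 1240, 1220 and 1173 on the DTG arrays, against 2392, 2790, 2593 and 2267 on the Control arrays. Jag2 was well above background on all 8 arrays, by 3.47 to 3.81 log2 units over the lowest signal so called on DTG arrays and by 5.94 to 6.82 on Control arrays. Set on the spike-ins, Jag2 read -0.77 (SE 0.12, adjusted p = 0.0017). The call held when each array in turn was left out, and the log2 fold change then ran from -1.30 to -1.18. Among arrays of high Xist, 3 DTG against 2 Control, the fold change was -1.13 (adjusted p = 0.012). Among arrays of low Xist, 1 DTG against 2 Control, it was -1.34 (adjusted p = 0.055), where the single DTG array is assumed to vary like the others. Within slide columns 1 to 4 Jag2 differed by -1.48, -1.18, -1.34 and -0.94, and with the column as a block its adjusted p was 0.0057.

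Notch3, the receptor known for its place in vascular smooth muscle and pericytes and also expressed in suprabasal epidermis, had levels of 1.52, 1.57, 1.72 and 1.53 on the DTG arrays, against 2.45, 2.03, 2.21 and 1.94 on the Control arrays. The groups did not overlap, but the nearest arrays, DTG 3 and Control 4, were close, and Control arrays were more spread than DTG arrays. The mean was 1.59 ± 0.09 in DTG skin and 2.16 ± 0.23 in Control skin (SD, n = 4 each). Notch3 thus fell by 0.57 on the log2 scale (SE 0.13, 95% interval -0.86 to -0.29, limma adjusted p = 0.011). Its processed signals before scaling were 11182, 12648, 13638 and 10839 on the DTG arrays and 18091, 17275, 16065 and 14489 on the Control arrays. The spike-in value was -0.11 (SE 0.10, adjusted p = 0.45), without a call. The value relative to the median of all genes was -0.43. With the Xist class as a covariate the change was -0.52 (adjusted p = 0.014), and within the arrays of high and of low Xist it was -0.39 and -0.76, with adjusted p = 0.085 and 0.11. Within slide columns 1 to 4 Notch3 differed by -0.93, -0.45, -0.49 and -0.41, and with the column as a block its adjusted p was 0.030. The groups were apart in 34.6% of all genes tested, in 23.2% with DTG lower.

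The promoters of both called genes, and of Jag1 as the closest relative of Jag2, are printed to show how different the start regions of these genes are. Each is the 250 bases before the RefSeq gene start in build GRCm38.p6, 5′ to 3′ on the strand of the gene, with capitals marking CG dinucleotides. Jag2 lies at chr12:112929496-112929745 (minus strand), Jag1 at chr2:137116521-137116770 (minus strand) and Notch3 at chr17:32166891-32167140 (minus strand).
Jag2: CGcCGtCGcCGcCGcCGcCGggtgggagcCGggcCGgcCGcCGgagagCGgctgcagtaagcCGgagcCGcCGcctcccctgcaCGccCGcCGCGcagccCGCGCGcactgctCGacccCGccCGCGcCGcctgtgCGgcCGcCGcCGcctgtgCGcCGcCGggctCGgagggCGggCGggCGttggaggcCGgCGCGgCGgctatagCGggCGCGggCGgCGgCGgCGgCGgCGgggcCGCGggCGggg
Jag1: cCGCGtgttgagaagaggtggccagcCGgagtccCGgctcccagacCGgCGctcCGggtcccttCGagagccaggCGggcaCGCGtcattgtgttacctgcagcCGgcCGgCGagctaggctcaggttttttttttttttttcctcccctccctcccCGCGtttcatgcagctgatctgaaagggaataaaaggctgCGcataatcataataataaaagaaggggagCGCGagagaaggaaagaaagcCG
Notch3: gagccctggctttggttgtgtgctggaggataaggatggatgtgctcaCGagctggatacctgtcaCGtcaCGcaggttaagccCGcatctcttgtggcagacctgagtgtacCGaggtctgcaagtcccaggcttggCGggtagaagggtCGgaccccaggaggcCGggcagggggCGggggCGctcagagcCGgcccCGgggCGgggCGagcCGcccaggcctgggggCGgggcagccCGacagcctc
The Jag2 window is 87.2% G and C and holds 54 CG dinucleotides, the Jag1 window 57.2% and 20, and the Notch3 window 68.8% and 17. The median over 32851 promoter windows of the same length was 52.4% G and C. All 8 genes matched the RefSeq promoter table, Dll1 with a pair of starts. The letters TGGGAA, the core of the site RBPJ is known to bind, and their reverse complement TTCCCA were in 0 of the 9 windows, against 21.6% of all windows. That is a statement about these letters in these windows only.

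By the probe that stands for each gene, the other receptors overlapped between the groups. Notch1, the main receptor of interfollicular epidermis, read 0.02, -0.02, -0.07 and -0.17 on the DTG arrays and -0.31, 0.00, -0.25 and -0.13 on the Control arrays. Its log2 fold change was 0.11 (SE 0.10, 95% interval -0.11 to 0.33, adjusted p = 0.40), and its second, dimmer probe gave 0.11 (SE 0.14). Notch2 read 2.57, 2.60, 2.19 and 2.67 on the DTG arrays and 3.27, 2.29, 2.46 and 2.50 on the Control arrays. Control 1 stood above the other Control arrays, and the log2 fold change of -0.12 (SE 0.22, 95% interval -0.62 to 0.37) became 0.09 without it. The second Notch2 probe was near background, with 1 of 4 DTG arrays and 4 of 4 Control arrays well above it, so the filter kept it through the Control arrays only. Its -0.39 (SE 0.15, adjusted p = 0.075, and 0.08 on the spike-in scale) did not pass. The DTG arrays were all below the Control arrays by this probe, but DTG 1 at -5.15 and Control 2 at -5.12 nearly met. Notch4, known as the receptor of endothelium, read -2.65, -2.29, -2.62 and -2.92 on the DTG arrays and -2.59, -2.58, -2.92 and -2.86 on the Control arrays, a log2 fold change of 0.12 (SE 0.15, 95% interval -0.22 to 0.46). These intervals leave room for a change the size of that of Notch3 in Notch2 but, for Notch1 and Notch4, not for a fall of that size. On the spike-in scale Notch1 read 0.58 and Notch4 0.59, both called higher (adjusted p = 0.024 and 0.020), and Notch2 read 0.34 (adjusted p = 0.20).

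Among the ligands, Jag1, which is found in epidermis and follicle, read 2.13, 2.27, 2.09 and 2.20 on the DTG arrays and 2.28, 1.52, 1.90 and 1.69 on the Control arrays. The DTG arrays were close together and above 3 of the 4 Control arrays, but Control 1 matched the highest of them. The log2 fold change was 0.32 (SE 0.16, 95% interval -0.04 to 0.69, limma adjusted p = 0.15). Without Control 1 it was 0.47 (adjusted p = 0.021), with the Xist class as a covariate 0.41, without scaling 0.45 and on the spike-in scale 0.79, and Jag1 was called higher in each of these and among arrays of high Xist (0.53). Other alternatives lowered it, to 0.22 without Control 2 (adjusted p = 0.31) and 0.18 among arrays of low Xist (adjusted p = 0.62). Dll1, a Delta-type ligand that marks basal keratinocyte clusters in human epidermis, was measured by 10 spots and read -1.07, -0.86, -0.79 and -0.84 on the DTG arrays and -0.84, -0.67, -0.64 and -0.55 on the Control arrays. Only Control 1 overlapped the DTG arrays, and the log2 fold change of -0.22 (SE 0.10, 95% interval -0.45 to 0.01, adjusted p = 0.13) did not pass. Dll4, the ligand of sprouting vessel tips, read -2.73, -2.65, -2.82 and -3.14 on the DTG arrays and -2.84, -2.73, -2.87 and -2.59 on the Control arrays, a log2 fold change of -0.07 (SE 0.13, 95% interval -0.36 to 0.22). The spike-in scale gave Dll1 at 0.25 and Dll4 0.40, without a call (adjusted p = 0.29 and 0.12). Each of the 8 genes was well above background on all 8 arrays by the probe that stands for it.

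**Figure D2:**
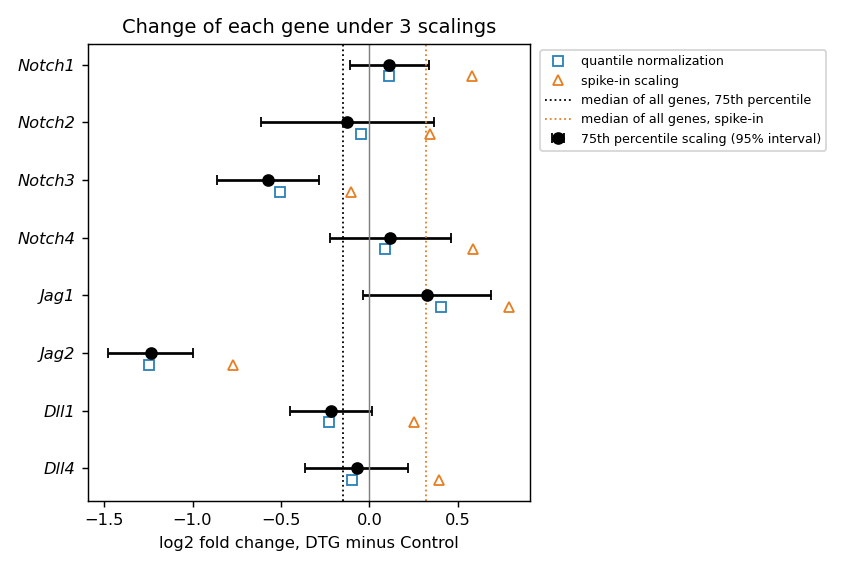
Log2 fold change, DTG minus Control, of each gene with its 95% interval under 75th percentile scaling (black), and the values under quantile normalization (squares) and spike-in scaling (triangles). Dotted lines are the median of all genes, at -0.15 and 0.32. Jag2 lies below 0 under all 3 scalings, and Notch3 comes close to 0 on the spike-in scale.

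Because the scale moves all genes of an array together, pairs within the family were also compared on the same array, where any scale of 1 number per array cancels. Of 12 pairs, 6 of receptors and 6 of ligands, 5 had groups that did not overlap (exact two-sided permutation p = 0.0286, the smallest that 4 arrays against 4 can give). All 5 hold Jag2 or Notch3, whose groups were already apart as single genes, so they are no separate support. For single genes the groups were apart in 34.6% of all genes tested. The share among all gene pairs was not computed, so 5 of 12 cannot be called unusual. Adjusted over the 12 pairs the p was 0.0686 for each, so 0 passed an adjusted p under 0.05. Jag1 minus Jag2 was 4.08, 4.05, 3.85 and 3.88 on the DTG arrays and 2.75, 2.13, 2.32 and 2.43 on the Control arrays. The difference between these Jagged genes was thus wider in DTG skin by 1.56 on the log2 scale. Jag2 minus Dll1 was -1.02 and Jag2 minus Dll4 was -1.16, DTG minus Control. Notch3 minus Notch4 was -0.69 and Notch1 minus Notch3 was 0.68. Notch2 minus Notch3 was 0.45, with overlap (exact permutation p = 0.0857). Without Control 1, 7 pairs reached an adjusted p of 0.0490 (exact permutation), and leaving out any other array left none under 0.05. Such a difference does not tell which of the 2 genes changed, and it does not compare their abundance.

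**Figure D3:**
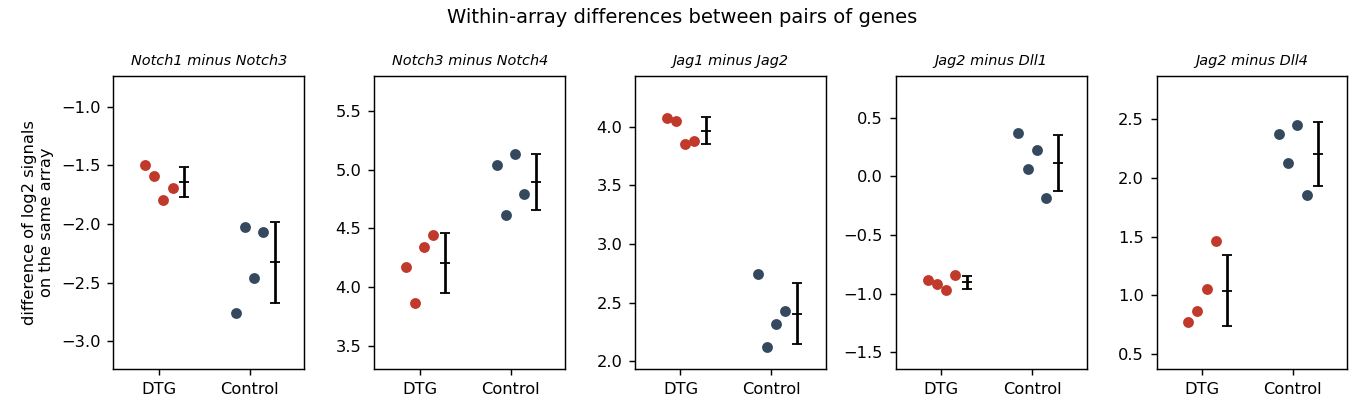
Difference of the log2 signals of 2 genes on the same array (vertical axes, of equal span) for the 5 pairs whose DTG and Control arrays did not overlap. Points are arrays, with mean and SD beside them, and Jag1 minus Jag2 lies at 3.85 to 4.08 on DTG arrays and at 2.13 to 2.75 on Control arrays.

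The genes whose level followed Jag2 most closely over the 8 arrays, among 17278 genes with values on all of them, were Acacb, the mitochondrial form of acetyl-CoA carboxylase (Pearson r = 0.998), Dnaaf1 (0.997) and Vsig10 (0.996). Acacb fell by 1.26 (SE 0.11), Vsig10 by 0.78 (SE 0.08) and Dnaaf1 by 0.74 (SE 0.09). The second probe of Acacb read -0.82 (limma adjusted p = 0.032), and that of Vsig10 -0.24 without a call (limma adjusted p = 0.23). For Notch3 they were Iqcd (r = 0.994), Bmp7, a bone morphogenetic protein ligand (0.991), and Ubap2 (0.988). Bmp7 fell by 0.80 (SE 0.15), while Ubap2 and Iqcd fell by 0.39 (SE 0.10) and 0.28 (SE 0.09), and both of these read above 0 on the spike-in scale, at 0.08 and 0.18, and lost their call with slide column as a block. The second Iqcd probe read -0.16 without a call (limma adjusted p = 0.31). These correlations are over 8 arrays that share the group difference and the same slide, and they are descriptions.

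Among 41 other genes of the pathway, written as a list by role, 38 were tested. Of these 11 were lower, 2 higher and 25 did not pass, against 21.3% lower and 11.1% higher of all genes. On the spike-in scale 12 of the 38 were called, 12 higher and 0 lower, and 10 of these 12 were genes that did not pass on the 75th percentile scale. Of the 11 genes called lower on the 75th percentile scale, 8 stayed below 0 on the spike-in scale, without a call, such as Dtx1 at -0.37, Lfng at -0.24 and Aph1a at -0.10. The list's median log2 fold change was -0.22, against -0.15 for all genes, and on the spike-in scale 0.24, against 0.32.

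**Figure D4:**
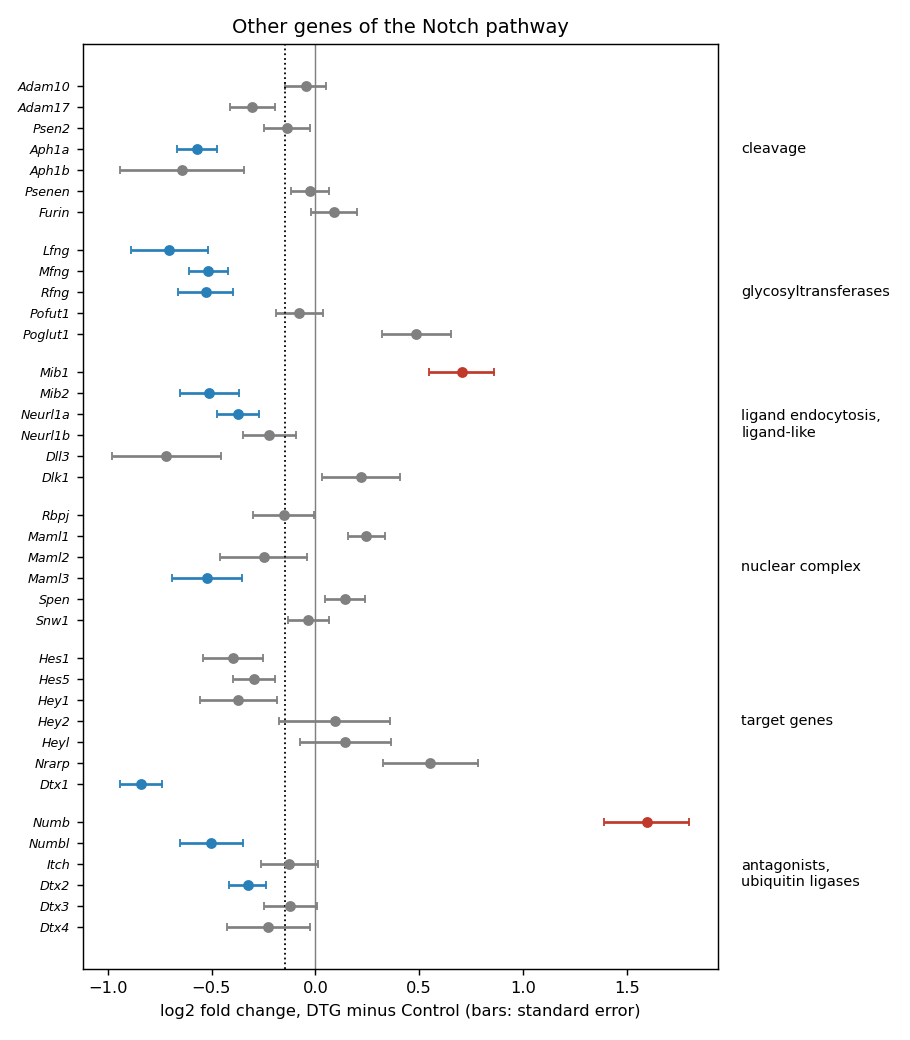
Log2 fold change, DTG minus Control, with standard error, of further Notch pathway genes by role. Blue genes were called lower, red genes higher and grey genes were not called. The dotted line is the median of all genes, -0.15.

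The counts by role are small and are read against the 21.3% lower and 11.1% higher of all genes. The Fringe glycosyltransferases modify Notch receptors and tune which ligands they answer to. They made up the 3 calls among 5 tested glycosyltransferase genes: Lfng fell by 0.70 (SE 0.19), Mfng by 0.51 (SE 0.09) and Rfng by 0.53 (SE 0.13). The second Rfng probe went the other way, at 0.63 (SE 0.13, adjusted p = 0.010), so its direction depends on the probe. On the spike-in scale Mfng read -0.05 and Rfng -0.06, without a call. Of the other glycosyltransferase genes, Poglut1 read 0.49 (limma adjusted p = 0.053), with every DTG array above every Control array, and Pofut1 read -0.08. Of 6 tested genes of ligand endocytosis or ligand-like proteins, Mib1, the ubiquitin ligase that lets ligands signal, rose by 0.70 (SE 0.16), while Mib2 fell by 0.51 (SE 0.14) and Neurl1a by 0.37 (SE 0.10). Of 7 cleavage genes 1 fell, Aph1a of gamma-secretase, by 0.57 (SE 0.10), with its second probe at 0.39 (SE 0.34). Adam17, a protease that sheds membrane proteins, read -0.30 (adjusted p = 0.059) and Aph1b -0.64 (adjusted p = 0.13), with its second probe at 1.04 (SE 0.81). Aph1b has a close paralog, Aph1c, whose RNA its probes could share, so its values are uncertain. Of the nuclear genes, the coactivator gene Maml3 fell by 0.52 (adjusted p = 0.045), and Maml1 read 0.25 (adjusted p = 0.063). Of 7 target genes only Dtx1 was called, which fell by 0.84 (SE 0.10). The classical targets Hes5 and Hes1 read -0.29 and -0.40 (adjusted p = 0.052 and 0.078). Of the other targets, Nrarp read 0.55 (limma adjusted p = 0.095), Heyl 0.14, Hey2 0.09 and Hey1 -0.37 (limma adjusted p = 0.15). Hes1 rests on 2 Control arrays, the other spots being left out for outlier flags, and with those spots kept it was called lower (-0.37, adjusted p = 0.025), as it was with the Xist class as a covariate (-0.45, adjusted p = 0.041). Hes5 was called lower under quantile normalization (adjusted p = 0.029), median scaling (0.034), normexp (0.049) and the stricter filter on dim probes (0.047), and without DTG 1 or Control 2. Among antagonists and ubiquitin ligases, Numb, which inhibits Notch receptors, rose by 1.59 (SE 0.20), and Numbl, measured on 3 DTG arrays, and Dtx2 fell by 0.50 and 0.33. Dll3, a ligand-like gene, and the target gene Hey2 were well above background on 0 of 4 DTG and 4 of 4 Control arrays, and neither passed the test. Dll3 read -0.72 (SE 0.26) and Hey2 0.09 (SE 0.27), and both were kept by the filter through the Control arrays only. The lowest level called well above background was -5.51 to -5.25 on DTG arrays and -7.24 to -6.40 on Control arrays, so these counts do not show a loss in DTG skin. Of the 13 calls, those of Aph1a, Mfng, Mib1, Dtx1 and Numb held without each array in turn, and the other 8 were each lost without at least 1. Leaving out Control 3 left 5 calls, DTG 2 left 7 and Control 2 left 8. With slide column as a block 8 calls were left, and Lfng (adjusted p = 0.070), Rfng (0.062), Neurl1a (0.058) and Dtx2 (0.070) were among those lost. On the spike-in scale, Neurl1a, Dtx2, Adam17, Hes5 and Hes1 read above 0, among the genes of each role with the smallest p. The other genes named here, such as Hey1, are not given on that scale, so their falls may not hold there.

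In whole skin, fewer cells of a type and less RNA per cell cannot be told apart, so markers of the cell types known to use these genes stand beside the results. Of all genes tested 21.3% were called lower and 11.1% higher, and the marker counts are read against these shares. Basal keratinocyte markers were lower in 4 of 7 (Col17a1 fell by 0.61, Itgb4 by 0.81). The summed signal of 6 of them was 77.1 to 86.0 on DTG and 89.9 to 117 on Control arrays, in multiples of the 75th percentile. Krt15, also called lower, lacked a DTG value and was left out of the sum. No marker sum was computed on the spike-in scale, where the median log2 fold change of all genes was 0.32, against -0.15. A gap between sums may therefore not hold on that scale. Suprabasal markers had 3 lower and 1 higher of 6 tested (Krt1 fell by 0.72, Krt10 by 0.44, and Ivl rose by 0.42). Their sums were 75.9 to 87.9 on DTG and 87.9 to 118 on Control arrays. Hair follicle markers had 0 called of 10 tested (Lef1 -0.58, Hoxc13 -0.43, adjusted p = 0.053 and 0.078), with sums of 10.3 to 11.3 on DTG and 9.80 to 14.2 on Control arrays. Dlx3 and Krt28 read 0.40 and 0.20, and the other tested follicle markers read below 0. Shh had a probe but did not pass the filter on dim probes, and Krt25 and Krt35 were each well above background on 1 of 4 DTG arrays, against 3 and 4 of 4 Control arrays. Beside Notch3, mural markers had 1 of 12 lower (Myl9 fell by 0.42, Kcnj8 read -0.82 with adjusted p = 0.055). Cnn1 read 0.42 (limma adjusted p = 0.13) and Des 0.12, while Myh11, Rgs5, Pdgfrb, Cspg4, Mcam and Abcc9 read -0.26 to -0.04. Sums over 11 of the mural markers were 63.8 to 68.8 on DTG and 67.7 to 83.4 on Control arrays. Acta2 and Tagln, which define smooth muscle, read -0.04 and 0.01, and on the spike-in scale 0.43 and 0.48. Beside Notch4 and Dll4, endothelial markers had 3 lower and 1 higher of 12 (Tie1 rose by 1.09, Cldn5 fell by 0.72), with sums of 15.0 to 19.7 on DTG and 20.0 to 22.9 on Control arrays. Of immune markers 1 of 6 tested was lower (Cd3e fell by 0.74, Csf1r read -0.27). The other immune markers read 0.34 (Ptprc), 0.19 (Lyz2), 0.08 (Cd74) and -0.09 (Adgre1). The other kept Csf1r probes read 0.33 and 0.20. Of fibroblast markers 2 of 5 were lower (Lum fell by 0.31, Dcn by 0.34), while Pdgfra read 0.36, Col1a1 -0.51 and Col3a1 -0.40. Immune sums were 28.3 to 41.1 on DTG and 29.2 to 44.2 on Control arrays, and fibroblast sums were 82.4 to 97.7 on DTG and 98.1 to 131 on Control arrays. Set on the spike-ins, Krt10, Myl9, Hoxc13, Csf1r, Lum and Dcn read above 0, among the 2 markers of each list with the smallest p. Apart from Acta2 and Tagln, the other markers are not given on that scale. Some of their falls, such as that of Col3a1, may not hold there. With slide column as a block Myl9, Krt1, Krt10, Lum and Dcn lost their call, with adjusted p from 0.059 to 0.077, and Kcnj8 was called lower (adjusted p = 0.029). The part of any of these cell types in the levels of Jag2 or Notch3 was not tested.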

How the data were processed

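Total RNA of whole skin was measured on 8 one-colour arrays, 4 DTG and 4 Control, grouped by the tissue label and numbered in deposit order, so the numbers pair no samples. Per the file headers, the deposited intensity values were made with Agilent Feature Extraction 11.5.1.1 (10.7 per the submitters' processing notes), on a linear scale, background-corrected within each array and not scaled between arrays. The headers name build mm9, and no array coordinates were used. The authors also deposited other columns, the scanner's quality flags, which marked outlier spots and background. The authors' deposited value table, of 43861 probes, is also a linear intensity: 99.6% of the values equalled the scanner signal to a tolerance of 0.001 in proportion. It served as an alternative.

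Accessions named 26762 of 55681 probes (48.1%) through a RefSeq table of GRCm38.p6, used for names, and the promoter sequences are RefSeq's. Signals were put on the log2 scale, outlier-flagged spots left out, spots of a probe averaged and the 75th percentile of each array subtracted. The filter on dim probes asked for a signal well above background on at least 3 of 4 arrays in either group. The brightest kept probe stood for a gene. Groups were compared with limma 3.58.1 in R 4.3.3, two-sided, adjusted by Benjamini-Hochberg over 17766 genes, called at an adjusted p under 0.05. A separate fit ran over all 23223 named kept probes, of which 31.3% were called. Pairs were compared by exact permutation over the 8 arrays. The fit was tested on simulated data. Precision is set by the number of arrays, with a median SE of 0.14 for log2 fold changes. The normexp alternative used the median signal, the column the files hold. Named genes are the 8 members, Msi1, the sex-linked genes, the 3 genes most correlated with each called member, and up to 3 genes of each pathway role and 2 of each marker list with the smallest p. Defining markers not above background, and Dll3 and Hey2, are named too. Further genes are named to show the spread of direction within a list. The alternatives, and the sets searched for a far array, do not cover these further genes one by one. In the pathway list 1 gene is counted but not otherwise reported here. Acta2 and Tagln were chosen after their values were seen. The members, lists and settings were chosen with earlier results of these data known. Alternatives were 4 other scalings, normexp, the deposited table, other filters, probe averaging, outlier spots kept, the Xist class, slide column, and leaving out each array.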

Additional observations from a re-analysis of the deposited data

Results flagged for a closer look

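Among the genes named by rule, 96 sets of 4 arrays (a probe or gene in 1 group) were listed to search for an array far from the rest. Sets lacking a value, such as Hes1 in Control and Numbl and Msi1 in DTG skin, could not be examined. Of the sets examined 3 held such an array. Chance alone gives about 1 in 20. None was a Notch receptor or ligand gene. DTG 4 read -0.37 for Aph1b, a gamma-secretase subunit gene, with the other DTG arrays at -0.98 to -0.93. Control 4 read 0.27 for Maml1, a coactivator of the Notch complex, with the others at 0.41 to 0.43. Control 4 read 0.16 for the T cell marker Cd3e, with the others at 0.49 to 0.54. The change between DTG and Control did not pass a test of difference between arrays of high and of low Xist in any of the named genes tested (of 17279 genes in that limma interaction fit 0 had an adjusted p under 0.05 and 1111 an unadjusted p under 0.05). Hes1, Numbl and Msi1 lacked values on some arrays and were not in that fit. Only 1 DTG array was of low Xist, so the fit could show little. The interaction of Jag2 was 0.21 (SE 0.20, unadjusted p = 0.34) and that of Notch3 was 0.37 (SE 0.21, unadjusted p = 0.13).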

How the results depend on the processing

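Jag2 kept its direction under all 22 alternatives and its call under 21, with a range of -1.34 to -0.77, the exception being the arrays of low Xist. Notch3 kept its direction under all 22, from -0.76 to -0.11, and lost its call on the spike-in scale and within the arrays of high and of low Xist. The number of member genes called was 4 on the spike-in scale and 0 with low Xist alone, and that of member probes 5 and 0, where 36.4% and 1.41% of all genes and 35.1% and 0% of all probes were called. Leaving out 1 array gave 2 to 3 of each.

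The 5754 genes called became 3829 without scaling, 2592 with high Xist alone and 249 with low Xist alone, and ran from 4062 to 5159 without 1 array. Of the calls 65.6% were lower in DTG, against 41.6% without scaling, 7.51% on the spike-in scale, 54.1% with high Xist alone, 32.5% with low Xist alone and 54.7% with no filter on dim probes. The 13 calls of the pathway list became 6 without scaling, 4 with high Xist, 1 with low Xist and 8 with slide column as a block. Without 1 array they ran from 5 to 13, with 5 without Control 3, 7 without DTG 2 and 8 without Control 2. The pairs at an unadjusted p under 0.05, 5 here, were 0 within either Xist class, where the arrays are too few to reach it, and 3 to 7 without 1 array (3 without DTG 2, 7 without Control 1, where all 7 had an adjusted p of 0.0490).

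Changes of sign among the members and the genes named by the smallest p or by correlation were these. On the spike-in scale Notch2 read 0.34, Dll1 0.25, Dll4 0.40, Adam17 0.16, Neurl1a 0.10, Hes5 0.17, Hes1 0.037, Dtx2 0.14, Myl9 0.050, Krt10 0.032, Hoxc13 0.034, Csf1r 0.20, Lum 0.16, Dcn 0.13, Iqcd 0.18 and Ubap2 0.081. With high Xist alone Notch1 read -0.0083, Notch4 -0.0092 and Notch2 0.078. Dll4 read 0.052 without scaling, 0.0087 with normexp, 0.21 with low Xist alone and 0.031 without DTG 4 (range without 1 array -0.13 to 0.031), and Notch2 read 0.088 without Control 1 (range -0.24 to 0.088). With probes averaged Aph1b read 0.20, Rfng 0.050 and Csf1r 0.087. The cause was not tested. The labels give no number shared by the groups, and the only block fitted was slide column, under which Jag2 and Notch3 kept their calls. Background was higher on DTG arrays, which limits what dim probes can show there.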
